A study of Mus musculus with 4 samples.

Results

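Intronic peaks were the ELF1 ChIP-seq peaks that lay inside a gene but only in its introns. They were taken from the authors' annotation of each peak on chromosomes 1 to 19: a peak counted if one of its listed features was an intron and none was a promoter, an exon or a 5′ or 3′ untranslated region, and the genes listed with the intron were its hosts. The wild-type (WT) list held 2024 such peaks among 5288 autosomal peaks, a share of 38.3% (37.0 to 39.6, exact Clopper-Pearson 95% interval), and the Elf1 knockout (KO) list held 1938 among 5117, or 37.9% (36.5 to 39.2). The WT peaks lay in 1591 host genes and the KO peaks in 1515.

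Chromatin came from bone-marrow-derived macrophages (BMDM), phagocytes differentiated in culture from marrow cells, of WT or Elf1 KO mice. Both genotypes were treated with lipopolysaccharide (LPS), a bacterial cell wall component, for 6 h, so there was no unstimulated group. Every sample title also carries the tag M1, whose meaning the titles do not give. Each genotype gave 1 immunoprecipitated (IP) library, made with an ELF1 antibody, and 1 input library. Peaks of the WT IP library were set against those of the KO IP library. The KO allele, strain, sex, age and number of animals are not stated in the labels, and peak lists hold no expression values, so neither the loss of ELF1 nor the macrophage identity could be checked. With 1 IP library per genotype no difference has a replicate check and no p-value is given. All intervals cover counting error only.

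ELF1 is a transcription factor of the ETS family, whose members bind DNA through a winged helix-turn-helix domain and recognise a GGAA core. ELF-type factors prefer the core preceded by CC, as in CCGGAAGT, and are best known at promoters of genes active in blood cells. Introns also carry regulatory elements: macrophage enhancers, opened by the ETS factor PU.1 together with C/EBP and AP-1 proteins, often lie within them. Introns make up most of the length of very long genes, many of which encode adhesion molecules and channels of neurons.

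Sequences at the summits are shown for 4 sets of intronic peaks. The first set was called in both genotypes and lay in CA/GT dinucleotide repeats, with the highest folds of either list at all but 1 of its members. Examples are shown as 200 bases of the GRCm38 forward strand centred on the WT summit, with alternating CA/GT runs of 8 bases or more in capitals. Zfyve26 encodes a protein of lysosome reformation, and Cfap299 a cilia- and flagella-associated protein.
Zfyve26, WT, chr12:79259362-79259561: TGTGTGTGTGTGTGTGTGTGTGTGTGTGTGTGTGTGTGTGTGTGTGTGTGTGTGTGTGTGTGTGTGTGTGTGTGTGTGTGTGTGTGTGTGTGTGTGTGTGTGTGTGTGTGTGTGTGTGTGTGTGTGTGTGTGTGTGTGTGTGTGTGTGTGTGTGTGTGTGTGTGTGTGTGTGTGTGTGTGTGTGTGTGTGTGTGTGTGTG
Cfap299, WT, chr5:98757313-98757512: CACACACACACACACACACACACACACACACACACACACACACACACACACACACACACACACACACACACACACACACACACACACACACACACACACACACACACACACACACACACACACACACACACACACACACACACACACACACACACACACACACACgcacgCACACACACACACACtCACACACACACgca

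The second set was also called in both genotypes but held no CA/GT repeat. The windows at Spag16, which encodes a protein of the sperm axoneme, and at Ccdc7a, a coiled-coil gene, are shown because they lie wholly in repeat-masked sequence and were weak in both lists.
Spag16, WT, chr1:69943177-69943376: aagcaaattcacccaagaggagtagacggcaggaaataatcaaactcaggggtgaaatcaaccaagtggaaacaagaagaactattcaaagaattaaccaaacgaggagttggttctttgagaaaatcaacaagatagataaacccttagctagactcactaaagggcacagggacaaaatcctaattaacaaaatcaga
Ccdc7a, WT, chr8:128815617-128815816: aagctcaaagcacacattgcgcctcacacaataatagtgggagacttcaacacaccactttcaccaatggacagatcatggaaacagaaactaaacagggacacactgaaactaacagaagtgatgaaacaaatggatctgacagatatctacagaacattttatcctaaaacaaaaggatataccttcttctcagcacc

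The third set, weak peaks called in 1 list only, made up nearly all of the intronic peaks. An example from Ptprd, a receptor tyrosine phosphatase of synapses and 1 of the 2 hosts with most peaks, is shown with no capitals because it holds no CA/GT run of that length and no CCGGAAGT. It was picked as the WT peak of highest fold in Ptprd (pileup 8, fold 4.31), so it is not a typical member of the set.
Ptprd, WT, chr4:76427964-76428163: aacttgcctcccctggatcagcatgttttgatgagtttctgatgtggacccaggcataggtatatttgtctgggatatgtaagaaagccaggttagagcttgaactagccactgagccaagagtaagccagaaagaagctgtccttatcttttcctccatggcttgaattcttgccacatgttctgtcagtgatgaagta

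The fourth set, chosen for the ELF-type site CCGGAAGT in the window, has 5 intronic peaks, all shown, with the site in capitals. The hosts were Grip1 (a scaffold of glutamate receptors), Car10 (a carbonic anhydrase-related protein), the predicted gene Gm19303 and Nr6a1 with its antisense gene Nr6a1os (an orphan nuclear receptor) in WT, and 1700113H08Rik in KO.
Grip1, WT, chr10:119570491-119570690: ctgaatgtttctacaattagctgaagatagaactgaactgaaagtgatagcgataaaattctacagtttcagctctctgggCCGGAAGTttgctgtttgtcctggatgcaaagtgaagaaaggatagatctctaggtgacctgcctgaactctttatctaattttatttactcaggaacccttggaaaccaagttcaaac
Car10, WT, chr11:93246184-93246383: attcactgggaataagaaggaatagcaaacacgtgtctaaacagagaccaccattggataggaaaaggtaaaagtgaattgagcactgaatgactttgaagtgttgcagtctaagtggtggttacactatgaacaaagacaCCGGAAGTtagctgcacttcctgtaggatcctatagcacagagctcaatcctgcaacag
Gm19303, WT, chr15:51301015-51301214: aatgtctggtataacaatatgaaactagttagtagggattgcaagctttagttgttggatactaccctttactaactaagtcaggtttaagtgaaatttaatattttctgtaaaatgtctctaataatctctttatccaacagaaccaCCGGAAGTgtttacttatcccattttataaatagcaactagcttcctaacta
Nr6a1/Nr6a1os, WT, chr2:38847934-38848133: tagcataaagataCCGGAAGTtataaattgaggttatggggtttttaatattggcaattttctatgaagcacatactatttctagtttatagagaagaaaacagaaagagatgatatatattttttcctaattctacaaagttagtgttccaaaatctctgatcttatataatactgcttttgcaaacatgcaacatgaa
1700113H08Rik, Elf1 KO, chr10:87103594-87103793: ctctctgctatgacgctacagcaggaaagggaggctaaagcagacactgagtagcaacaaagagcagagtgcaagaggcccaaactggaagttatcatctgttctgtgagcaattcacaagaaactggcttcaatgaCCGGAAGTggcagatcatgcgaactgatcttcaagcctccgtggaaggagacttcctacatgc

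The site was therefore in 4 of 2024 WT windows (0.198%, 0.0539 to 0.505) and in 1 of 1938 KO windows (0.0516%, 0.00131 to 0.287), and in 0.113% of all 5075574 non-overlapping 200-base windows of autosomal intron-only sequence. With intron windows weighted to the GC content of the peaks, the intron share was 0.0684% for WT and 0.0787% for KO, inside both intervals. Both strands were searched. The 5 peaks had pileups of 5 to 8 fragments at the summit and authors' folds over background of 2.94 to 4.39, none overlapped a peak of the other list, and none passed a q of 0.05. The shorter CCGGAA was in 1.14% (0.722 to 1.70) of WT and 0.929% (0.551 to 1.46) of KO windows, against 1.45% of intron windows, and against 0.926% and 1.04% at the GC content of the peaks, so the WT share was below introns unweighted and above them weighted, within its interval both times. The PU.1 site GAGGAAGT, which also holds the GGAA core, was in 1.78% (1.25 to 2.45) of WT and 1.39% (0.920 to 2.02) of KO windows, against 1.18% of intron windows. The WT interval lay above that value, and above the 0.947% of introns at the GC content of the WT peaks. The KO interval held both 1.18% and the weighted 1.02%.

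The AP-1 site TGANTCA lay in 5.14% of WT windows (4.22 to 6.19) and 6.45% of KO windows (5.40 to 7.64), against 6.01% of intron windows. The interferon response element (GAAA, 2 free bases, GAAA) lay in 3.95% (3.15 to 4.90) and 3.41% (2.64 to 4.31), against 3.10%. The WT interval lay above that intron value. With intron windows weighted to the GC content of the peaks, the intron share was 3.87% for WT and 3.66% for KO, inside both intervals. The RUNX site TGTGGTTT lay in 2.37% (1.75 to 3.13) and 2.12% (1.52 to 2.86), against 1.70%, so the WT interval lay above the intron value. With the same weighting the RUNX value of introns was 1.92% for WT, inside that interval. The C/EBP site TTGCGCAA was in none of the windows, which allows a share of up to 0.148% in WT and 0.155% in KO (3 counts of the total), against 0.0158% of intron windows.

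Most intronic peaks were small. The median width was 238 bp in WT and 243 bp in KO, the median pileup 6 and 7 fragments, and the median authors' fold 3.499 and 3.416. Read depth is unknown, since the lists carry no library totals. A pileup of at least 10 fragments was reached by 92 WT peaks (4.55%, 3.68 to 5.55) and 126 KO peaks (6.50%, 5.44 to 7.69). The authors' q was below 0.05 for 94 WT intronic peaks (4.64%, 3.77 to 5.65), against 5.16% of all autosomal WT peaks, and for 106 KO intronic peaks (5.47%, 4.50 to 6.58), against 5.73% of all autosomal KO peaks. Intronic peaks were thus about as strong as the others in each list.

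Per length of sequence, intronic peaks were somewhat sparser than peaks outside genes. Sequence that is intron in some gene and exon in none makes up 43.3% of the called autosomal bases in GENCODE M21. Peak midpoints fell there at 1.99 per Mb in WT (1.90 to 2.08) and 1.91 per Mb in KO (1.83 to 2.00), and outside genes at 2.46 (2.38 to 2.55) and 2.41 (2.32 to 2.49). On no autosome did the interval of the WT density per Mb of intron-only sequence lie apart from that of KO. The highest WT density was 2.68 per Mb on chromosome 3 and the highest KO density 2.41 per Mb on chromosome 16.

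Intronic peaks rarely lay at the same place in both genotypes. A peak of the other list overlapped 16 WT intronic peaks (0.791%, 0.453 to 1.28), against 1.04% of all autosomal WT peaks, and 16 KO intronic peaks (0.826%, 0.473 to 1.34), against 1.07% of all autosomal KO peaks. The overlap was concentrated among the strongest peaks: 12 of 16 WT intronic peaks with q of 1e-05 or below were shared (75%, 47.6 to 92.7) and 12 of 14 in KO (85.7%, 57.2 to 98.2). Between that limit and a q of 0.05, 1 of 78 WT peaks and 0 of 92 KO peaks overlapped the other list, and the 0 allows up to 3.26% (3 of 92). Above a q of 0.05 the counts were 3 of 1930 and 4 of 1832.

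Of the 16 shared intronic peaks, 9 were covered to at least 50% by CA/GT repeats. Except at Homer1, these had higher folds than any other intronic peak of their list. The strongest lay in intron 2 of the predicted lincRNA gene Gm39317 (chromosome 9, 32355141 to 32355697 in WT), with a pileup of 235 and a fold of 43.8 in WT and a pileup of 305 and a fold of 61.5 in KO. A second peak in that intron had folds of 20.6 in WT and 49.0 in KO. The repeat in intron 5 of Cfap299 had folds of 16.996 in WT and 25.86 in KO. The repeat in intron 27 of Zfyve26 had folds of 14.5 and 17.6, and the repeat in intron 3 of the cilia gene Cfap43 7.85 and 20.98. The fold was higher in WT at Mocos, the molybdenum cofactor sulfurase (33.1 against 17.3), although its pileup was 99 in WT and 108 in KO. It was also higher in WT at Homer1, a postsynaptic scaffold (6.46 against 4.39), where the KO peak had a pileup of 8 and did not pass a q of 0.05. Over all 9 repeats the KO fold was the higher one at 7. Windows with at least 50% CA/GT repeat were 9 of 2024 in WT (0.445%) and 9 of 1938 in KO (0.464%), against 0.0636% of intron windows.

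**Figure D1:**
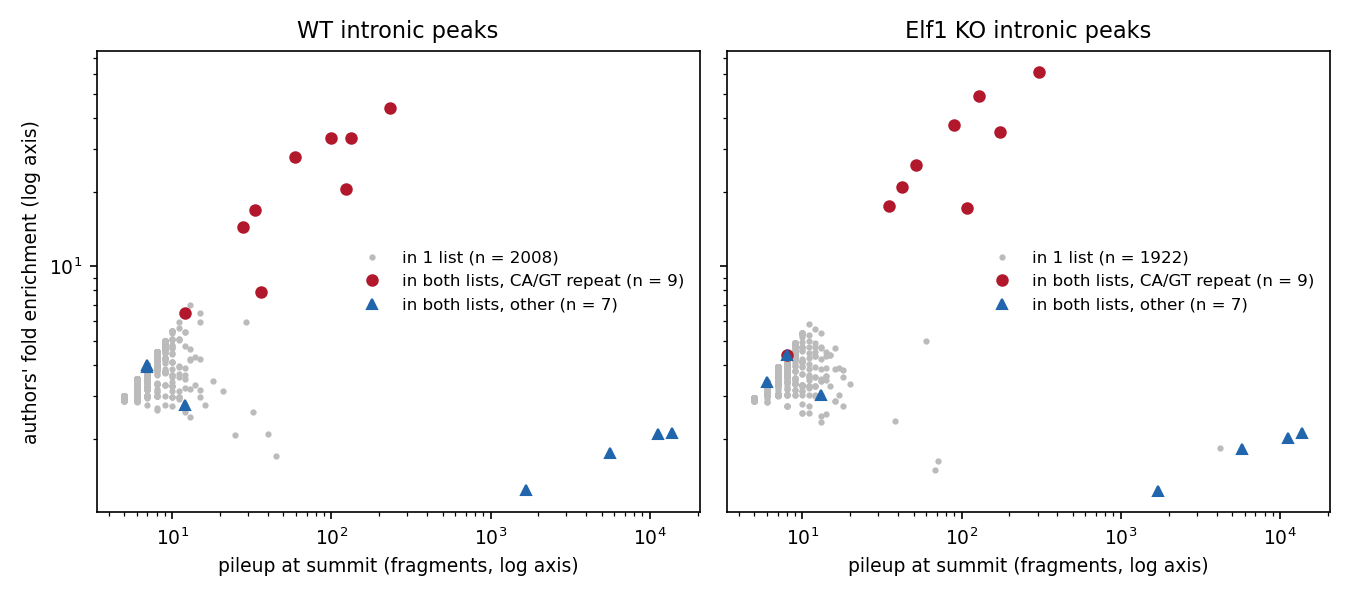
Each point is 1 intronic peak of the WT list (left) or the Elf1 KO list (right), by its pileup at the summit in fragments and its authors' fold enrichment, both on log axes. Most peaks called in 1 list only sit at pileups of 5 to 20 and folds of 2 to 7, the 9 shared CA/GT repeats (red) reach folds of 43.8 in WT and 61.5 in KO, and 4 of the 7 other shared peaks (blue) have pileups of 1680 or more with folds near 2 or below.

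Of the 7 shared peaks without CA/GT repeats, 4 had very high pileups at low fold. They lay in the predicted lincRNA genes Gm26870 (3 peaks) and Gm33838 (1 peak) on chromosome 9, with WT pileups of 1680 to 13769 and folds of 1.24 to 2.12. In KO the pileups of the same peaks were 1710 to 13826 and the folds 1.23 to 2.12. A 12-base match to major satellite, the repeat of pericentromeric chromatin, was found in 3 of the 4. The remaining 3 shared peaks, at Spag16, Ccdc7a and Sh3tc2 (a protein of Schwann cell endosomes), lay in fully masked sequence, with pileups of 7 to 12 in WT and 6 to 13 in KO.

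Few strong intronic peaks were found in 1 genotype only. With q of 1e-05 or below they were 4 in WT: Grid1, a glutamate receptor subunit (fold 5.94), Zfp979, a zinc-finger gene (6.998), Ano2, a chloride channel (6.51), and Sbno1, a strawberry notch homologue (5.95). In KO they were 2: a further peak in Gm26870 (fold 1.84, pileup 4176) and a peak in Lsamp (fold 4.98, pileup 60). Repeat-masked sequence covered 100% of the Grid1, Gm26870 and Lsamp peaks, 95.3% of Sbno1 and 80.0% of Ano2, and 7.81% of the Zfp979 peak, which lay 0.571 kb from the gene start in intron 1. The Lrp1b peak, in a giant lipoprotein receptor gene, was among the 10 highest folds of named WT hosts at 5.96. Among named KO hosts the highest folds after the repeats were 5.86 in Cntn4, a contactin of axons, and 5.38 in Sntg1. A fold of 5.37 followed in Dlgap1 and in the peak shared by Fgfr2 and Pstk. Further peaks tied with these, among them those in Tet2 and Ranbp17.

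Host genes were shared far more often than peaks. Of the 2651 genes hosting an intronic peak in either list, 455 hosted one in both, which is 28.6% of WT hosts and 30.03% of KO hosts. GENCODE M21 held 2631 of the 2651. Among its 20807 autosomal protein-coding genes, 1237 were WT hosts (5.95%), 1170 KO hosts (5.62%) and 387 hosts in both lists (1.86%). The protein-coding hosts in both lists had a median span of 405 kb from start to end (364 to 440). Hosts in WT alone had a median of 88.1 kb (81.3 to 95.6), hosts in KO alone 96.8 kb (88.0 to 109), and genes with no intronic peak 15.0 kb (14.7 to 15.4). A long gene is more likely to be a host in both lists at equal density, and this count makes no allowance for that. Within the shared hosts the peaks themselves were far apart: over 848 pairs of a WT peak and a host, the closest KO summit in the same gene lay at a median of 65.8 kb (58.8 to 73.0), and within 1 kb in 24 of them (2.83%).

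Longer genes held more intronic peaks per Mb, in both genotypes. WT density was 1.07 peaks per Mb of span (0.756 to 1.47) in protein-coding genes under 10 kb, 1.19 (1.04 to 1.34) from 10 to 50 kb, and 1.31 (1.15 to 1.496) from 50 to 100 kb. It was 1.60 (1.43 to 1.79) from 100 to 200 kb, 1.87 (1.69 to 2.06) from 200 to 500 kb, 2.49 (2.20 to 2.80) from 500 to 1000 kb and 2.59 (2.24 to 2.97) at 1000 kb or more. KO density ran from 0.844 (0.569 to 1.20) under 10 kb through 1.05, 1.09, 1.63, 1.91 and 2.35 to 2.45 (2.11 to 2.82) at 1000 kb or more. WT and KO intervals overlapped in all 7 bins. Genes of 500 kb or more held 2.16 times (1.87 to 2.51) as many peaks per Mb as genes under 50 kb in WT and 2.35 times (2.01 to 2.75) in KO. Among the WT peaks with q below 0.05 the ratio was 1.09 (0.496 to 2.34), an interval that holds both 1 and the ratio of all WT peaks. Among the KO peaks with q below 0.05 it was 2.37 (1.22 to 4.80), an interval above 1.

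**Figure D2:**
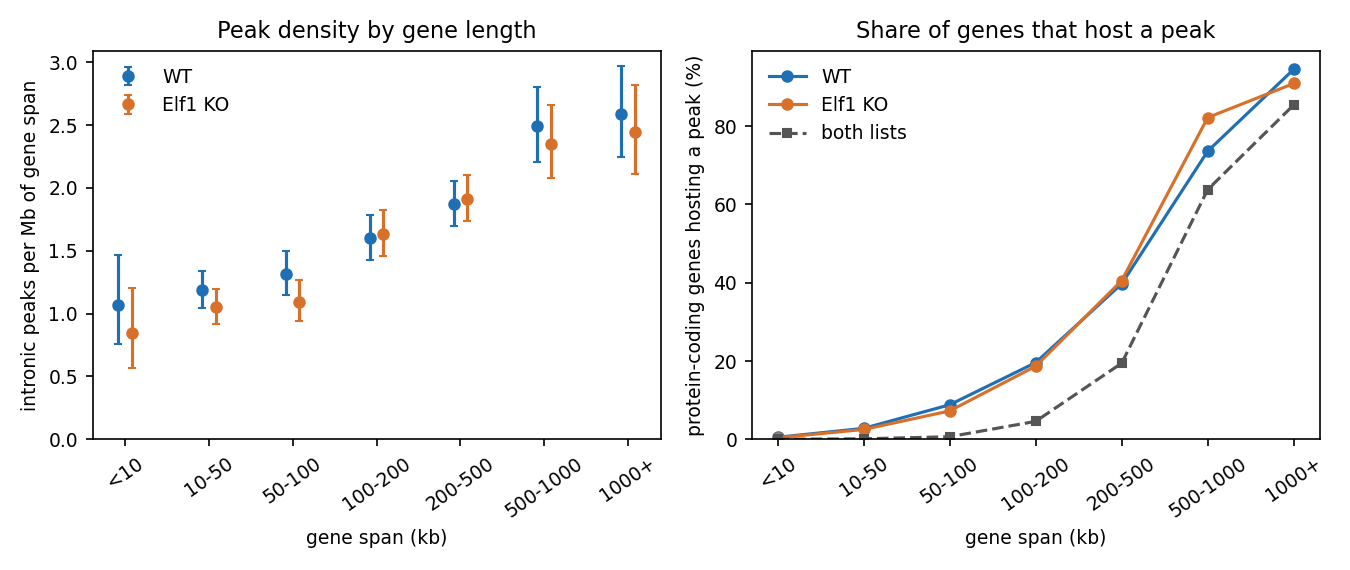
Left, intronic peaks per Mb of gene span for autosomal protein-coding genes in 7 bins of span in kb, with exact Poisson 95% intervals as bars; WT is blue and Elf1 KO orange. Density rises from 1.07 to 2.59 per Mb in WT and from 0.844 to 2.45 in KO. Right, the share of genes in each bin that host an intronic peak in the WT list, in the KO list and in both, which reaches 94.5%, 90.9% and 85.5% at 1000 kb or more.

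The 218 protein-coding genes of 500 kb or more, 1.05% of all such genes and 18.4% of their summed span, included 172 WT hosts and 184 KO hosts. They held 27.9% of the WT intronic peaks with a protein-coding host (25.8 to 30.1) and 27.6% of the KO ones (25.5 to 29.9). Only 13 of them had no intronic peak in either list, and none of the 55 genes of 1000 kb or more. The 13 included Ank3, the ankyrin of the axon initial segment, Foxp1, a forkhead transcription factor, Cdk14, a cyclin-dependent kinase, and Pard3, a cell polarity scaffold. Across the 218 genes the peak counts of WT and KO correlated with a Pearson r of 0.466 and a Spearman rho of 0.402, and per Mb of span with 0.207 and 0.221. These are descriptions across genes, which share their length and base composition between the lists.

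**Figure D3:**
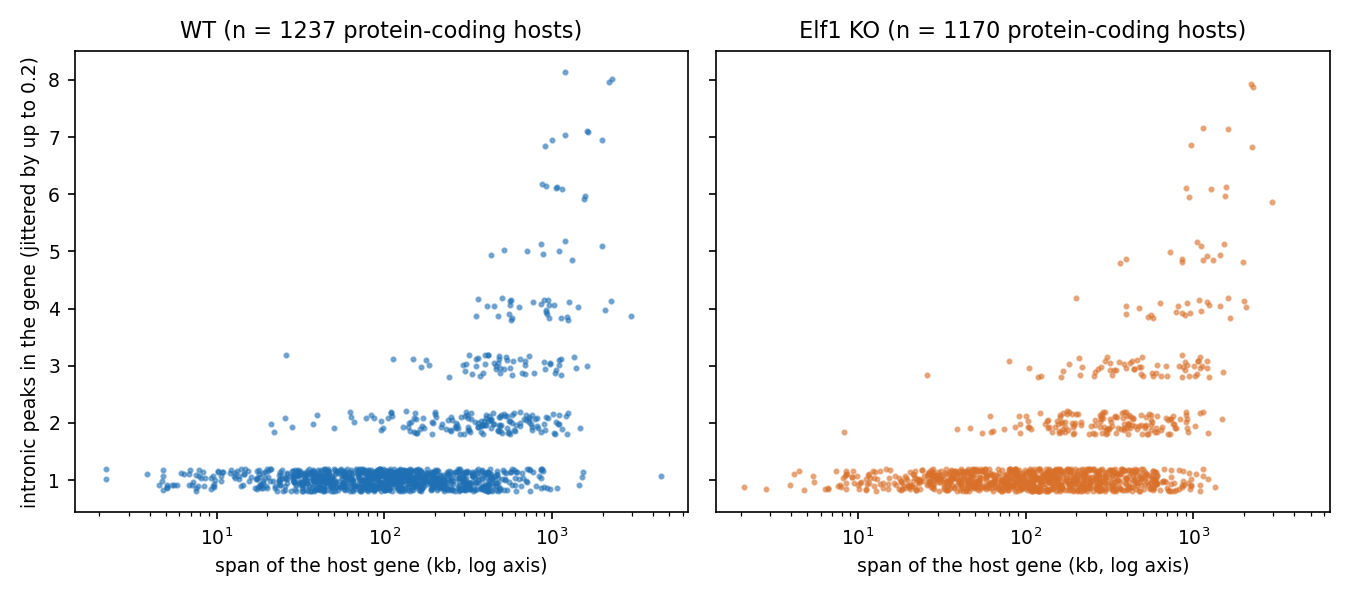
Each point is 1 protein-coding host gene by its span in kb (log axis) and its number of intronic peaks, shifted by up to 0.2 at random for display, in the WT list (left, 1237 hosts) and the Elf1 KO list (right, 1170 hosts). Hosts with 1 peak cover the whole range of spans, and hosts with 5 or more peaks lie toward the long end of the range.

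GC content moved with gene length. The median GC of intron windows fell from 45% in genes under 50 kb to 39.5% in genes of 1000 kb or more. Intronic peaks were AT-rich: the median GC of the 200 bases at the summit was 37.5% in WT (37 to 38) and 39.5% in KO (39 to 40), against 42.5% in all intron windows. Peak density fell with window GC in WT, from 4.07 per Mb (3.77 to 4.38) below 35% GC through 2.66 (35 to 40%), 2.03 (40 to 45%) and 1.11 (45 to 50%) to 0.321 (0.242 to 0.416) at 50% or more. In KO the density was 2.502 (2.27 to 2.75) below 35%, 2.89 from 35 to 40%, 2.40 from 40 to 45%, 1.25 from 45 to 50% and 0.344 at 50% or more. Below 35% GC the WT and KO intervals did not overlap, so the libraries differed there by more than counting error. The part of library GC bias in that difference was not tested.

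Within classes of GC the relation to gene length was uneven. Below 35% GC, WT density was 4.23 per Mb of intron windows in genes under 50 kb and 4.21 in genes of 500 kb or more, and KO density 2.55 and 2.62. From 40 to 45% GC density rose with length, from 1.61 (1.23 to 2.07) to 2.88 (2.40 to 3.43) in WT and from 2.11 (1.67 to 2.63) to 2.95 (2.47 to 3.504) in KO. From 35 to 40% GC it rose in KO from 2.15 (1.63 to 2.79) to 3.32 (2.80 to 3.90). WT density in that class was similar in the shortest genes, at 3.00 (2.37 to 3.74), and the longest, at 3.05 (2.56 to 3.61). It was lower between them, at 2.24 (1.87 to 2.66) from 50 to 200 kb and 2.53 (2.08 to 3.05) from 200 to 500 kb. From 45 to 50% GC, WT density was 1.19 (0.877 to 1.57) in the shortest and 0.901 (0.603 to 1.29) in the longest genes, and KO density 1.19 and 1.305. At 50% GC or more, where peaks were few, KO density rose from 0.140 (0.0512 to 0.304; 6 peaks) to 0.895 (0.512 to 1.45; 16 peaks), and WT density was 0.233 (0.112 to 0.428; 10 peaks) and 0.447 (0.193 to 0.882; 8 peaks). Over all classes, per Mb of intron windows rather than of gene span, the ratio of the longest to the shortest genes was 1.57 in WT and 1.72 in KO. With each length class weighted to the same GC make-up it was 1.15 in WT and 1.37 in KO, so most of the WT ratio was no longer seen at equal GC.

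**Figure D4:**
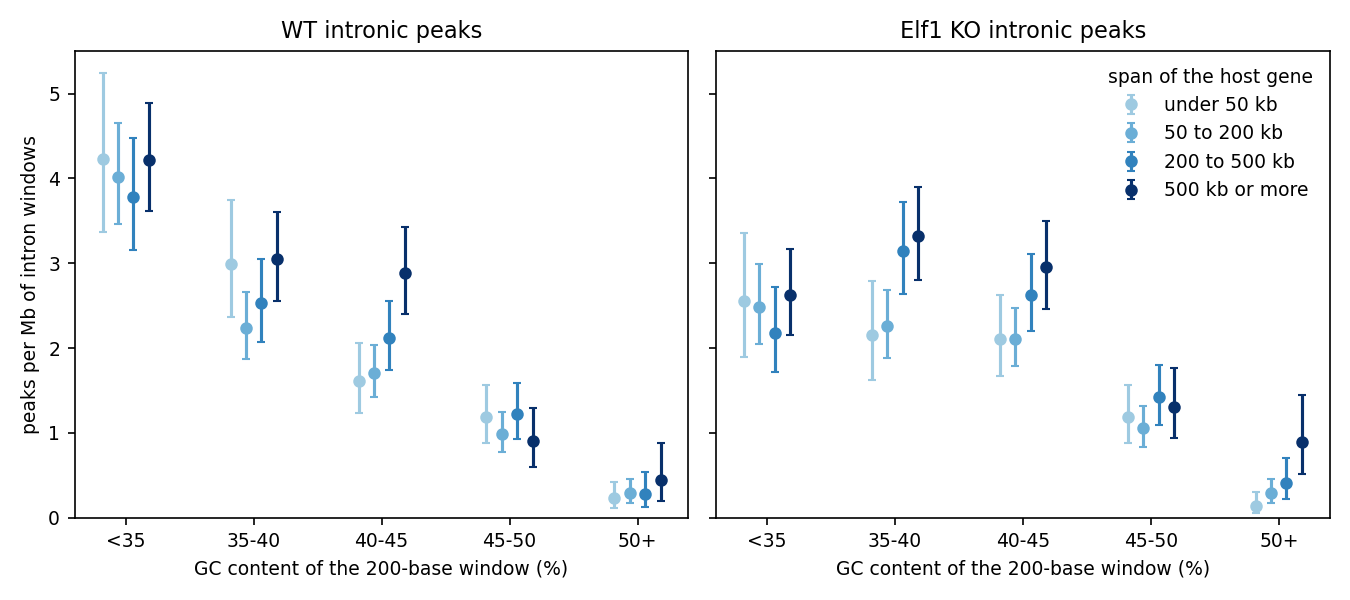
Intronic peaks per Mb of 200-base intron windows in 5 classes of window GC content (%), for host genes in 4 classes of span (light to dark blue, shortest to longest), with exact Poisson 95% intervals, in WT (left) and Elf1 KO (right). Density falls with GC in WT from 4.07 to 0.321 per Mb over all genes, and below 35% GC the 4 length classes are level in both lists.

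The hosts with most intronic peaks were very long genes, mostly of neuronal adhesion and signalling. Of the 20 with most peaks over both lists, 9 had equal counts in WT and KO. Lsamp, an adhesion molecule of the IgLON family (chromosome 16, 39984361 to 42181679), held 8 WT and 8 KO peaks. Ptprd (chromosome 4, 75941238 to 78211961) also held 8 and 8. Fhit, a diadenosine triphosphate hydrolase at a fragile site (chromosome 14, 9550092 to 11162035), held 7 and 7. Pcdh15, a protocadherin of hair-cell tip links, and Ctnna3, an alpha-catenin, held 6 and 6 each. Nrg3, an ERBB4 ligand, Nkain2, Lrrc4c, a netrin-G ligand, and the synaptic scaffold gene Dlg2 held 5 and 5 each.

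The other 11 of the 20 differed by 2 to 5 peaks. Prkg1, the cGMP-dependent protein kinase, held 8 WT and 3 KO peaks. Csmd1, a complement-control protein, and Macrod2, an ADP-ribose hydrolase, each held 7 and 4, Pard3b and Ccser1 7 and 3, and the neuregulin receptor gene Erbb4 6 and 4. Cadm2, a cell adhesion molecule, and Cntnap2, a neurexin relative, each held 4 and 7, Sntg1, a syntrophin, and Agbl4, a carboxypeptidase, 4 and 6, and the IgLON gene Opcml 3 and 7. No host held more than 8 peaks in a list, and at such counts exact Poisson intervals cannot separate even from a count of 0 (3.45 to 15.8 for 8 peaks, 0 to 3.69 for none), so they say nothing on whether a single host differed between genotypes. Fgfr2 also totalled 10 peaks and lost a place only by length; GENCODE M21 gives it a span of 2961 kb that includes the gene Pstk, so a peak in Pstk can count for both.

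**Figure D5:**
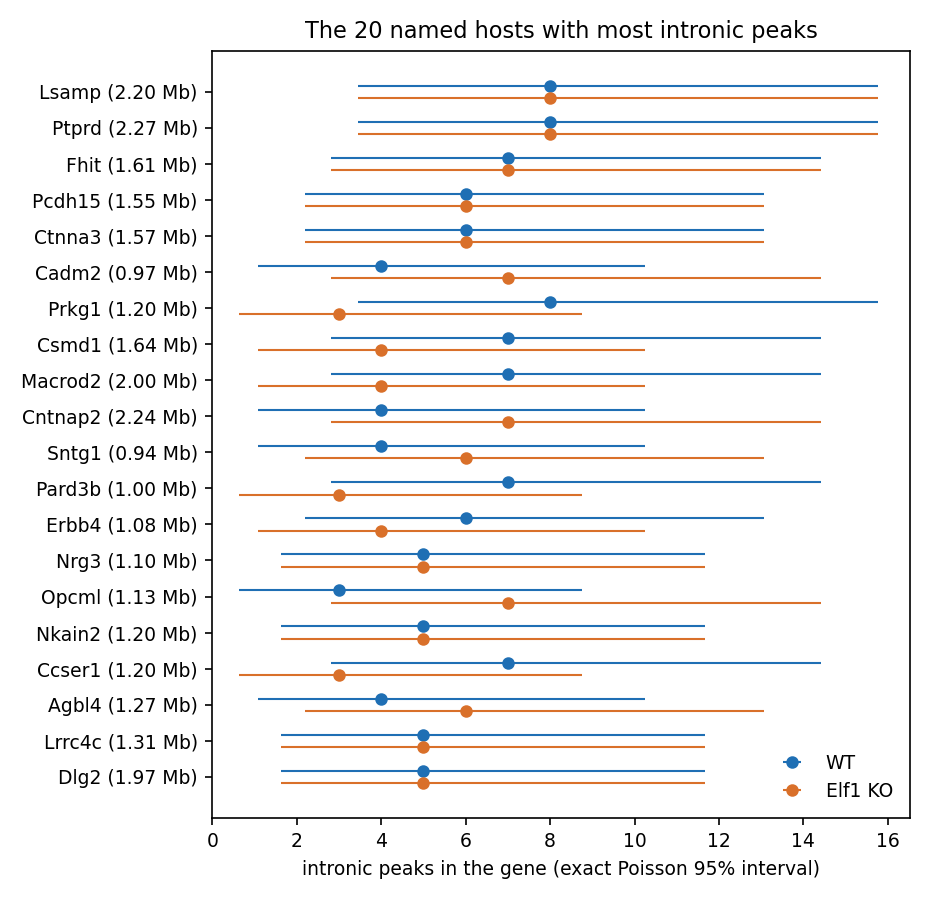
Number of intronic peaks in each of the 20 named hosts with most peaks over both lists, in WT (blue) and Elf1 KO (orange), with exact Poisson 95% intervals as bars and the gene span in Mb beside the symbol. Counts of at most 8 per list give wide intervals that could not have separated.

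The peaks inside these hosts were weak and differently placed. In Lsamp the 8 WT peaks had pileups of 5 to 9 and folds of 2.98 to 4.97. The 8 KO peaks had pileups of 5 to 7 and folds of 2.93 to 3.82, apart from the masked-sequence peak of pileup 60. The closest WT and KO summits in Lsamp were 14.8 kb apart, and the median WT summit lay 121 kb from a KO summit. In Ptprd the WT pileups were 6 to 11 and the KO pileups 5 to 9, with the closest summits 4.33 kb apart. In Fhit the closest summits were 7.93 kb apart, and in Pcdh15 3.85 kb.

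The largest excess of either genotype in 1 gene was 5 peaks. In WT it was reached by Rims1, a protein of the presynaptic active zone (5 WT and 0 KO), Dpyd, an enzyme of pyrimidine breakdown (6 and 1), Nlgn1, a neuroligin (7 and 2), and Prkg1. Next came Nalcn, the sodium leak channel, Sema5a, a semaphorin, and Dok6, each with 4 and 0, and Rgs7, March1, a ubiquitin ligase that lowers MHC class II, and Pcdh9, each with 5 and 1. In KO the excess was 5 in Dlgap1, a postsynaptic scaffold, and in Galntl6, a glycosyltransferase-like gene (0 and 5 each). It was 4 in Ccdc85a, Myt1l, a neuronal zinc-finger factor, Ptprn2 and Auts2 (0 and 4 each), in the potassium channel gene Kcnt2, the oestrogen receptor gene Esr1 and the catenin gene Ctnnd2 (1 and 5 each), and in Opcml. At these counts a difference of 5 peaks was not detectable beyond counting error.

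Ranked by peaks per 100 kb among named hosts with at least 4 peaks, shorter genes led. Sis, the intestinal sucrase-isomaltase, had 5.04 peaks per 100 kb (1 WT and 3 KO), Fam184a 3.39 (1 and 3), and Pde3b, a phosphodiesterase of cAMP, 3.23 (1 and 3). Scn9a, a sodium channel of pain neurons, had 2.58 (2 and 2), and the PDZ scaffold gene Mpdz 2.43 (3 and 1). Tmem200a, Pdgfc (a growth factor), Iqch, Zeb1 (a repressor of epithelial genes) and Ccdc85a had 2.01 to 2.40. These genes stand at the top of a ranking by small counts, and each holds 4 peaks in all. The predicted gene Gm21119, outside the naming rule and picked out after its values were seen, held 3 WT and 3 KO peaks in 25.8 kb.

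Genes of synaptic adhesion and neuronal surfaces had the highest share of hosts of the 13 gene lists. Of 55 such genes, with a median span of 968 kb, 47 hosted WT peaks and 47 hosted KO peaks, against 5.95% and 5.62% of all protein-coding genes, whose median span is 17.6 kb. They held 161 WT peaks (137 to 188) and 142 KO peaks (120 to 167). At the density of their length bins, to which they contribute themselves, they would hold 141 and 133. Of 47 genes of ion channels and neurotransmitter receptors, with a median span of 436 kb, 34 hosted WT and 31 KO peaks. They held 67 WT (51.9 to 85.1) and 62 KO peaks (47.5 to 79.5), against 49.6 and 48.3 at the density of their bins, so the WT interval lay above its bin value and the KO interval held it. Grm7, a metabotropic glutamate receptor, held 6 and 2, Trpm3, a cation channel, 4 and 3, and Grik2, a kainate receptor, 3 and 3. All 13 gene lists were chosen with earlier results of these data known. The shares of hosts and the counts above bin values are therefore descriptions of these lists and no independent evidence.

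Genes of the macrophage response hosted 0 to 3 intronic peaks per list in each genotype, in the range their lengths give. Of 35 genes of LPS and NF-kB signalling, Mapk14, the p38 kinase, hosted 1 WT peak, and Tlr4, the LPS receptor, and the ubiquitin ligase gene Traf6 hosted 2 and 1 KO peaks. None of 37 inflammatory effectors hosted a peak in either list. Of 35 interferon and antiviral genes, none hosted a WT peak, and the nucleic acid sensor gene Zbp1 and the GTPase gene Ifi47 hosted 1 KO peak each. Of 24 macrophage markers, Adgre1, which encodes F4/80, hosted 1 WT peak, and Tlr4 and the phagocytic receptor gene Mertk hosted KO peaks. These genes are short, with median spans of 26.4, 6.57, 15.9 and 16.1 kb for the 4 lists, and at the density of their length bins would hold 1.61, 0.522, 0.780 and 1.36 WT peaks, where 1, 0, 0 and 1 were found. For KO the same values were 1.46, 0.446, 0.676 and 1.33, where 3, 0, 2 and 3 were found. Each of these values lies inside the Poisson interval of its count.

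ETS genes, the family of ELF1 itself, gave 1 WT host of 24, Elk3, and 2 KO hosts, Etv5 and Spic, with 1 peak each, where 2.12 WT and 2.05 KO peaks are given by the density of their length bins. Elf1 and Spi1, which encodes PU.1, hosted none. Of 36 genes of phagocytosis and lysosome, the scavenger receptor gene Cd36 hosted 1 WT peak, and 5 hosted KO peaks, among them the Rac activator genes Dock2 with 2 and Vav3 and Elmo1 with 1 each, and Mertk. At the density of their bins these genes would hold 5.80 WT and 5.56 KO peaks, and 1 (0.0253 to 5.57) and 6 (2.20 to 13.1) were observed, so the WT interval ended just below its bin value and overlapped that of KO. Of 16 T cell markers 2 hosted WT peaks (Cd247 and Skap1) and 1 a KO peak (Themis), and of 12 B cell markers Bank1 hosted 1 KO peak. The bin densities give 1.57 WT and 1.498 KO peaks for the T cell markers and 1.75 in each list for the B cell markers. Markers of neutrophils (15) and stromal cells (14) and cytosolic ribosomal protein genes (53) hosted none, where the bin densities give 0.132, 0.578 and 0.286 WT peaks and 0.113, 0.499 and 0.234 KO peaks.

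First introns held about the share of peaks that their length gives. The longest transcript was the one with the greatest summed exon length, which need not cover the whole gene span. For peaks with a midpoint in an intron of the longest transcript, the first intron held 496 of 1734 in WT (28.6%, 26.5 to 30.8) and 454 of 1660 in KO (27.3%, 25.2 to 29.6). The first intron took on average 28.1% of the intron length of the same hosts in both lists. The gene span, cut into 4 equal parts from start to end, held 23.8% (21.8 to 25.9), 27.6% (25.5 to 29.7), 27.1% (25.02 to 29.3) and 21.5% (19.6 to 23.5) of these WT peaks, so the middle parts held more and the last part fewer than an equal share. The KO shares were 24.6%, 26.7%, 25.2% and 23.5%, with intervals that all hold an equal share. Promoter, exon and untranslated-region peaks, and peaks outside introns of the longest transcript, are left out of these counts. The intron length of each part was not measured, so an equal share is not a matched baseline and the WT pattern cannot be read as a preference. Within 10 kb of the gene start lay 13.2% of WT and 13.5% of KO peaks. Repeat-masked bases made up a mean of 31.5% of the WT and 33.3% of the KO windows, against 29.6% of intron windows.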

How the data were processed

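ELF1 ChIP-seq libraries from LPS-treated macrophages, 1 IP and 1 input per genotype, were grouped by the sample titles. The authors filtered reads with Trimmomatic 0.36, aligned clean reads to GRCm38 by Bowtie2 and used SAMtools rmdup against PCR duplicates, per the series' design text. Which tools called and annotated the peaks, and at which threshold, is not given in the sources used here. Each deposited list set 1 IP library against the input of its genotype, as the lists are named. For every peak the deposited columns are, per the file headers, the pileup signal at the summit in fragments, a fold enrichment (a ratio over the background), and a −log10 p and −log10 q, all the authors' own values. Input reads and library totals were not analysed here, so read depth is unknown.

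Host spans, introns and gene types came from GENCODE M21 and sequence from GRCm38, with repeats by soft-masking. Counts and densities carry exact Poisson intervals, shares exact Clopper-Pearson intervals and medians order-statistic intervals, at 95%. Peaks of the 2 lists were called overlapping from 1 bp. Motifs were sought on both strands in 200 bases centred on the summit. Scripts used Python 3.11.15, NumPy 2.4.6, pandas 2.3.3, SciPy 1.17.1 and Matplotlib 3.10.9 and were tested on simulated data.

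The hosts named were the 20 with most peaks over both lists, the 10 with the largest excess in each genotype, those of the 10 highest folds in each list, the 10 with most peaks per 100 kb among hosts with at least 4 peaks, up to 4 of each of 13 gene lists, and those of overlapping or CCGGAAGT-holding peaks. Predicted or unnamed genes were left out except in the last group, and some hosts that the rule names are not reported here. The intronic class, the hosts and the gene lists were chosen with earlier results of these data known. Alternatives covered the peak threshold, strong repeat peaks, the intronic class, the overlap, the length measure, the transcript and the motif. The 2 densities per intron window were added after seeing the data.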

Additional observations from a re-analysis of the deposited data

Results flagged for a closer look

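On chromosome X, outside the autosomal comparison, the KO list held 121 intronic peaks (100.4 to 145, exact Poisson 95% interval) and the WT list 13 (6.92 to 22.2). It was marked because the signal lies in data that the report's comparisons do not use. On chromosome Y the counts were 0 in KO and 7 in WT. The labels give no sex for the mice of either genotype, so whether the 2 libraries came from animals of different sex was not tested, and a difference of sex and a difference of genotype cannot be told apart in any comparison of the 2 lists.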

How the results depend on the processing

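The 22 results were recomputed under 172 alternatives in all: 122 values stayed within the interval of the reported value, or within 1.5 times a reported count, and 50 moved. With q below 0.05, the intronic counts were 94 (WT) and 106 (KO), and their shares of peaks 34.4% (28.8 to 40.4) and 36.2% (30.7 to 42.0). The hosts were 101 and 107, hosts with 2 or more peaks 2 and 5, and hosts in both lists 18.8% and 17.8%. The overlap then rose to 12.8% and 11.3%, and CCGGAAGT was at 0% in both lists (0 to 3.85 in WT, 0 to 3.42 in KO). Masked sequence, here the median over whole peaks, was 47.7% (25.4 to 80) and 35.9% (22.7 to 100), against 19.9% in each full list. The WT median GC of whole peaks was 37.3% (35.7 to 38.7), against 37.6% in the full list. The KO first-intron share was 23.0% (14.6 to 33.2) and the WT density ratio 1.09 (0.496 to 2.34). The KO density ratio stayed within its reported interval, at 2.37 (1.22 to 4.80). For the intronic shares, CCGGAAGT, WT GC, the KO first-intron share and the WT density ratio, the wider intervals at this threshold hold the full-list values. No change with the threshold is shown for these. With −log10 p of at least 4, the intronic counts were 1275 and 895, KO hosts 769, and hosts with 2 or more peaks 169 and 115. WT hosts in both lists were then 20.0% and the KO overlap 1.56%. The KO median over whole peaks was 39.0% for GC, against 39.5% in the full list, and 22.3% for masked sequence, against 19.9%. Counts fall under both thresholds because fewer peaks remain; the cause of the other moves was not tested.

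Without peaks of fold 10 or more the overlap was 0.397% (WT) and 0.415% (KO), and without CA/GT repeats and major satellite 0.199% and 0.208%, since shared repeat peaks are then left out. With exactly 1 host gene the intronic share was 36.2% and 36.1%. With protein-coding hosts only it was 32.1% and 31.4%, hosts in both lists were 31.3% and 33.1%, and the first-intron share 25.8% and 23.9%. With the first intron of any transcript that share was 40.7% and 39.5%. With CCGGAA the ETS site share was 1.14% and 0.929%. The density ratio was 1.73 and 1.86 by summed intron length, 1.57 and 1.72 per intron window, and 1.15 and 1.37 at equal GC.

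No paired analysis was possible because each genotype has 1 IP library and no result comes from a test. Library totals are unknown and most peaks rest on 5 to 8 fragments, so weaker binding can be missing from either list, and absence from a list does not show absence of binding. No difference between genotypes can be told apart from a difference between the 2 libraries.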
